A study of Mus musculus with 110 samples.

Results

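The VH segment at position 116240676 of mouse chromosome 12 is a single variable gene segment of the immunoglobulin heavy chain locus (Igh). Its members are the junctions whose prey end lies within 100 bases of that position. There were 7686 such junctions among 312039 junctions in the VH region (114829805 to 117639092) and 3602400 junctions in all, over 98 full libraries. Of the 7686, 7658 joined in the orientation used by normal VH to DJH joining, and 7580 (98.6%) lay within 20 bases of the position. The farthest junction inside the window lay 74 bases away and the nearest outside it 438 bases away, so the window cuts through no cluster of junctions. The segment, listed as Ighv1-76-like_116240676, was chosen by its measured share in the CTCF degron line: with auxin against without, and with and without auxin against the untreated parental line. Those values are given as a description without a test.

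V(D)J recombination assembles the exon for the antigen-binding part of the heavy chain from 1 VH, 1 D and 1 JH segment. The RAG endonuclease cuts at a recombination signal sequence beside each segment, made of a heptamer, a spacer and a nonamer. In pro-B cells a D is first joined to a JH, and a VH is then joined to that DJH. RAG sits at a recombination centre over the JH segments, and cohesin-driven loop extrusion is known to carry the chromatin of the locus past it. CTCF bound along the locus, including at the control region IGCR1 between the D and VH segments, is known to hold up that movement.

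The assay was LAM-HTGTS V(D)J-seq, which amplifies linearly outward from a bait at JH4 and reads what the bait was joined to. The lines were v-Abl transformed mouse pro-B cell lines, all deficient in RAG2 and all with the Emu-Bcl2 transgene, which keeps arrested cells alive. Each was given RAG2 by nucleofection and arrested with the inhibitor STI-571 (3 µM, 4 days), which blocks the Abl kinase. The genotypes were the parental line (called WT in some labels), the Ostir1 knock in, the CTCF-mAID-GFP tag without Ostir1, the CTCF degron, the Rad21 degron, and the Rad21 degron with IGCR1 deleted. Each was grown without auxin (NT) or with 500 µM of IAA (indole-3-acetic acid, an auxin), from 6 h before the inhibitor and alongside it. OsTIR1 is a plant F-box protein that marks an AID-tagged protein for breakdown when auxin is present, and Rad21 is a subunit of cohesin. The remaining source was pro-B cells of wild type 129SV mouse bone marrow, sorted as B220+CD43+IgM-; replicate 1 has no sort in its label. The protocol field of bone marrow replicates 4 to 6 repeats the inhibitor text of the lines, whereas their own characteristics name only the sort. The labels do not say how many clones stand behind a line, nor whether replicates were separate cultures or animals, so p-values measure the spread between these samples only. DNA was sequenced, so no marker of cell identity could be read.

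Replicates held 1263 to 231023 junctions, with a median of 44486 over 56 replicates. The shallowest were the Rad21 degron with IAA (1263 to 2492) and its IGCR1-deleted form with IAA (1608 to 2668). There were 5199 distinct segment junctions with an insert of at least 8 bases, told apart by prey position, bait end and inserted sequence. Of these, 93 were in both the a and the b library of 1 replicate and 11 were in more than 1 replicate. Libraries were spread over 11 sequencing runs, read from the read names. All CTCF degron libraries came from 1 run, which held no other group, and the tag-only and Ostir1-only lines share no run. Bone marrow libraries came from runs that held no line. They alone were single libraries with a bait tag of 5 bases, against 2 and 8 in the a and b libraries of the lines. In every bone marrow comparison below, cell source, run and library form cannot be told apart.

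The sequence at the segment identifies it. Junction positions in the files are on a genome that combines mm9 with a second sequence of Igh, and the segment lies 390222 bases lower in mm9. The last 300 bases of the VH, up to its recombining end, are shown here because every junction below joins them. They lie at chr12:115850454-115850753 of mm9, on the minus strand, and the capitals mark the conserved cysteine codon that ends the framework before CDR3.

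segment VH: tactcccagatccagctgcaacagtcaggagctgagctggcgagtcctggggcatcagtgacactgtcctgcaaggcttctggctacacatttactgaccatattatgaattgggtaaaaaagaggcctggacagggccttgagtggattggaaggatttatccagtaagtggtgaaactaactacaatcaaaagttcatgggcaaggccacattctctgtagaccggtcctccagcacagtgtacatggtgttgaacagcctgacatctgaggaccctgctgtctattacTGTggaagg

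The peak of junctions lay exactly at the last base of this sequence (0 bases apart). A consensus of the reads covered 300 bases and was the same as mm9 at 297 of them. The consensus of the bone marrow reads and that of the v-Abl reads had 0 differences over 300 bases. The frame of the cysteine codon holds 0 stop codons over these bases, in mm9 and in the reads.

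The working name of the segment refers to Ighv1-76, and the sequence goes against it. Among annotated VH segments of mm9 the closest was Ighv1-84 at 83% identity over 294 bases, and Ighv1-76 followed at 82.9% over 293 bases. Its immediate neighbours Ighv1-12 and Ighv1-9 had 81.0% and 80.5%. The mm9 gene annotation used here has 0 genes over the segment. It lies between Ighv1-9 (chr12:115821780-115822213) and Ighv1-12 (chr12:115854061-115854354), at 28674 bases from the first and 3607 bases from the second, counted between recombining ends. In RefSeq's gene table, on assembly GRCm38.p6, Ighv1-11 lies 28675 bases from Ighv1-9 and 3606 bases from Ighv1-12. The segment is therefore placed where that table has Ighv1-11. In the order of 141 VH segments from the JH side it is number 79, 1.41 Mb into a VH region of 2.81 Mb.

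The recombination signals of the segment and of its neighbours are shown because RAG cuts at them. Each is given from the base after the VH end, on the minus strand of mm9, with heptamer and nonamer in capitals.

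segment: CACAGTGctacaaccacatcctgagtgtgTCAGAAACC
Ighv1-9: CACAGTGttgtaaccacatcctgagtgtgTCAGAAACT
Ighv1-12: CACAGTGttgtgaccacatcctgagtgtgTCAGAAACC
Ighv1-14: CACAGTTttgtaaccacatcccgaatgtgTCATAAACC
Ighv15-2: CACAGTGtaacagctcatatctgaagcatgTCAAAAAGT
Ighv2-3: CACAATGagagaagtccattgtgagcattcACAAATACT
Ighv5-2: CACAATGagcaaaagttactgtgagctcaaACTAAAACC

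The signal of the segment (chr12:115850416-115850453) has the consensus heptamer CACAGTG, a spacer of 22 bases and a nonamer with 7 of 9 bases of the consensus ACAAAAACC. Ighv1-9 (chr12:115821742-115821779) and Ighv1-12 (chr12:115854023-115854060) each share 34 of its 38 bases, Ighv1-12 with the same heptamer and nonamer. Ighv1-14 (chr12:115884745-115884782), added to the set after values were seen, shares 31 of 38 and has 6 of 7 heptamer bases. Ighv15-2 (chr12:115802750-115802788), Ighv2-3 (chr12:114849356-114849394) and Ighv5-2 (chr12:114816676-114816714) have a spacer of 23 bases. Of 129 VH segments with a signal in reach, 96 (74.4%) have the heptamer CACAGTG, 102 (79.1%) have a nonamer with 7 or more matches and 39 (30.2%) have the nonamer of the segment itself. In a window of 500 bases on each side of the VH end, on both strands, the letters CCANNAGNNGGC, a core of the CTCF motif, occurred 0 times at the segment and were found at 44 (34.1%) of the 129. From Ighv6-3 at 116022318 to the end away from JH, every VH segment of the 129 had 0 except Ighv1-12, which had 1. The absence is therefore not particular to the segment. A match of letters is a description of sequence and not of binding.

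In the CTCF degron line with IAA the segment took 1.19%, 2.32%, 2.67%, 2.11%, 2.35% and 2.86% of all junctions in the 6 replicates. The median was 2.34% and the mean 2.25% ± 0.584 (SD, n = 6), from 4177 segment junctions. Replicate 1 was the lowest and the other 5 lay between 2.11% and 2.86%. The treatment labels of both libraries of replicate 5 and of the a library of replicate 4 lack IAA, and their titles were followed. Among VH junctions the shares of the same replicates ran from 3.94% to 9.83% with a median of 8.78% and a mean of 8.27% ± 2.20. Replicate 1 was low on this scale too, and without it the mean was 9.14%. VH junctions together made up 27.6% of the pooled junctions of this group.

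Without IAA the same line gave 0.0583% to 0.274% of all junctions, with a median of 0.162% and a mean of 0.168% ± 0.0841 (SD, n = 6). Every IAA replicate lay above every NT replicate. Among VH junctions the NT shares ran from 2.21% to 6.89% (mean 4.08% ± 1.72), and the groups overlapped there, since IAA replicate 1 lay at 3.94%. VH junctions made up 3.92% of the pooled junctions of the NT group. These are values from which the segment was chosen, and they carry no test. When identical junctions of a library were counted once, the means of all junctions became 3.62% with IAA and 0.526% without. Identical here and below means the same prey position, orientation, bait end and insert length. The inserted bases were not compared, so different joins of equal length can count as identical.

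**Figure D1:**
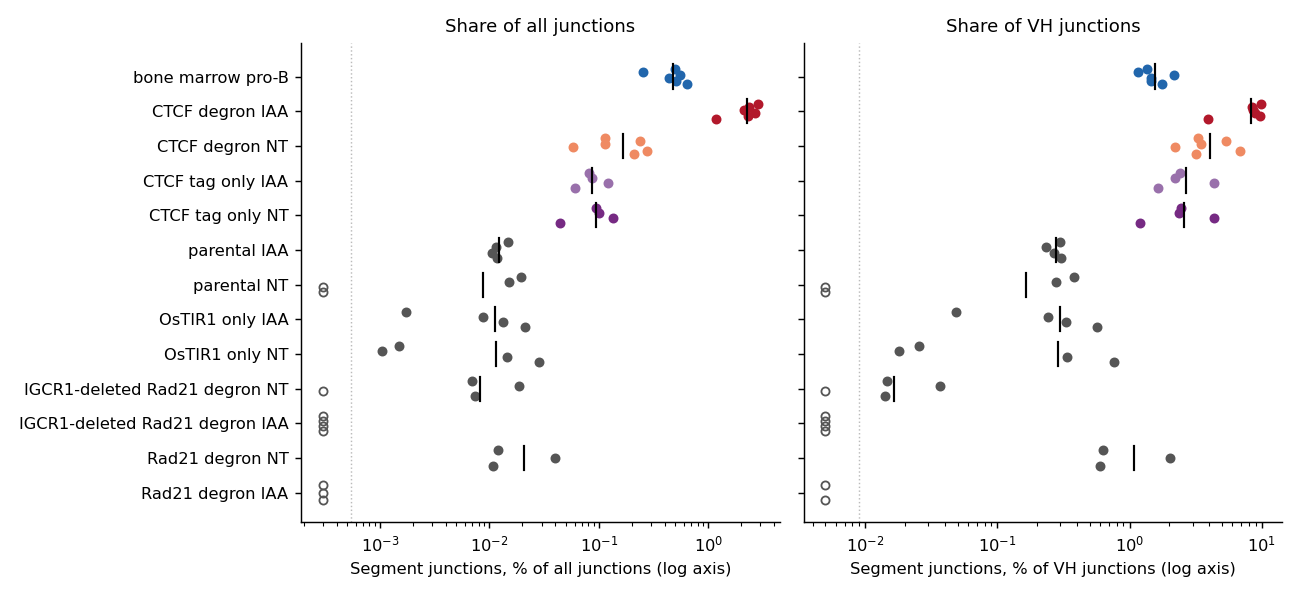
Share of junctions at the VH segment at 116240676 in each replicate (points) of 13 groups, as a percentage of all junctions (left) and of VH-region junctions (right), on log axes; black bars are means and open points left of the dotted line are replicates with 0 junctions. CTCF degron IAA lies highest on the left at 1.19% to 2.86%, above bone marrow at 0.256% to 0.637%, while on the right its lowest replicate falls among those of CTCF degron NT.

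In the parental line without IAA, replicates 1 and 2 had 0 segment junctions of 17607 and of 14866, which allows shares of up to 0.0170% and 0.0202%. Replicates 3 and 4 had 0.0152% and 0.0195%. The mean was 0.00867% ± 0.0102 (SD, n = 4), and replicates 1 and 2 are also the shallow ones. With IAA the 4 parental replicates had 0.0118%, 0.0105%, 0.0115% and 0.0149% (mean 0.0122% ± 0.00191). The parental groups overlapped, and the segment made up 0.163% ± 0.193 and 0.276% ± 0.0312 of their VH junctions.

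The line with the CTCF tag but no Ostir1 had 0.0446%, 0.136%, 0.101% and 0.0937% without IAA and 0.0609%, 0.121%, 0.0867% and 0.0812% with it. Means were 0.0938% ± 0.0376 and 0.0874% ± 0.0249 (SD, n = 4 each). All 8 replicates lay above every parental and Ostir1-only replicate. With identical junctions of a library counted once, the means became 0.417% and 0.358%, and those of the parental line 0.0504% and 0.0493%. As a share of VH junctions they gave 2.61% ± 1.32 and 2.66% ± 1.19.

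The Ostir1-only line had 0.0284%, 0.0146%, 0.00105% and 0.00150% without IAA (mean 0.0114% ± 0.0130, n = 4) and 0.0210%, 0.0134%, 0.00865% and 0.00173% with it (mean 0.0112% ± 0.00809, n = 4). Its replicates fell apart by run. Without IAA the first run held 20 segment junctions of 97175 (0.0206%, exact 95% interval 0.0126% to 0.0318%) and the second 2 of 161850 (0.00124%, 0.000150% to 0.00446%). Such intervals cover counting error only, since reads without molecular identifiers are not independent molecules.

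The Rad21 degron without IAA had 0.0108%, 0.0399% and 0.0119% (mean 0.0209% ± 0.0165, n = 3), from 5, 10 and 5 junctions. With IAA there were 0 segment junctions of 5566 over 3 replicates, which allows up to 0.0539%. That limit is above the mean without IAA, so a difference was not detectable at this depth. In the IGCR1-deleted form, 3 segment junctions were found among 48627 without IAA, 1 in each of replicates 1, 3 and 4, and 0 among 8434 with IAA, which allows up to 0.0356%. VH junctions there were 50.6% of all without IAA, and Ighv5-2, a JH-proximal VH, was the most used. The segment held 0.0164% ± 0.0153 (SD, n = 4) of VH junctions in that group.

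Bone marrow pro-B cells had 0.256% to 0.637% of all junctions at the segment, with a median of 0.503% and a mean of 0.481% ± 0.129 (SD, n = 6). As a share of VH junctions this was 1.15% to 2.17%, with a median of 1.46% and a mean of 1.56% ± 0.358. VH junctions were 31.9% of the pooled junctions, close to the 27.6% of the CTCF degron with IAA.

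Ordered by mean share of all junctions, only 2 steps separated neighbouring groups beyond their ranges. The first was from the Rad21 degron NT (highest replicate 0.0399%) to the tag-only IAA group (lowest 0.0609%), and the other from bone marrow (highest 0.637%) to the CTCF degron IAA (lowest 1.19%). All other neighbours in that order overlapped. Ordered by share of VH junctions, only the step from Ostir1-only IAA (highest 0.564%) to Rad21 degron NT (lowest 0.593%) was free of overlap.

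The rank of the segment among 141 VH segments needs no scale. It ranked 4 in the CTCF degron with IAA, 7 in that line without IAA and 8 in the tag-only line with and without IAA. In the Ostir1-only line with and without IAA and in the Rad21 degron NT it ranked 9, from only 26, 22 and 20 segment junctions. In the parental line it ranked 11 with IAA and 13 without, and in bone marrow 17. The IGCR1-deleted Rad21 degron NT gave rank 13, from 3 segment junctions. Above it in the CTCF degron with IAA were Ighv2-3 (4.87%), Ighv5-6 (3.30%) and Ighv5-12 (2.52%), the latter pair named after their values were seen. All 3 lie on the JH side of the region. In every other group with junctions the top VH was Ighv5-2, at 3.45% in bone marrow, 2.26% in the untreated parental line and 0.635% in the CTCF degron NT.

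Comparisons that did not choose the segment were tested. Group means of the replicate shares were compared by exact permutation, two-sided, with Benjamini-Hochberg adjustment over 12 comparisons (6 pairs of groups, as a share of all and of VH junctions). Log2 changes came from limma across all segments of a comparison, with all junctions of a library as the scale. Several of these comparisons share the Ostir1-only NT or the tag-only NT group.

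Without IAA, the tag-only line was higher than the Ostir1-only line by 0.0824 points of all junctions and by 2.32 points of VH junctions. No fold is given, since the low mean turns on 1 replicate: without Ostir1-only NT replicate 1 it went from 0.0114% to 0.00570% of all junctions and from 0.286% to 0.126% of VH junctions. With identical junctions counted once the differences were 0.380 and 2.44 points. The ranges were apart and each exact permutation p was 0.0286, the smallest that 4 against 4 allow, adjusted 0.0490; without any 1 Ostir1-only replicate it was 0.0571. In limma the segment was higher by log2 4.36 (SE 0.90, adjusted p = 0.00548), number 1 by size among 65 segments tested, of which 35.4% were called. The segment reached the limma minimum, a mean of 10 junctions over the replicates of both groups, through the tag-only line, since only 22 junctions were found in the Ostir1-only line. It was 1 of 24 such VH segments among the 32 tested, and a higher level in the tag-only line was favoured for them before the test, so nothing is read from how many were called or from their median of 2.52. With no minimum the segment had 3.92 (limma adjusted p = 0.00149). Of the 11 other VH segments within 100 kb, 4 were tested and 2 were called higher, beside 46.9% of all VH segments tested, and all 4 were admitted through the tag-only line. Ighv1-9 had 111 junctions in the tag-only line and 2 in the Ostir1-only line, and Ighv1-12 had 80 and 1. The lines differ in depth, with 563564 and 259025 junctions in all. As mean shares of all junctions, Ighv1-9 had 0.0191% and 0.00105%, and Ighv1-12 had 0.0136% and 0.000455%. Of 47 VH segments of the Ighv1 family by symbol, 10 were tested and 5 called higher, and these 10 were admitted the same way.

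With IAA in both lines, the tag-only line was higher by 0.0762 points of all junctions and 2.36 points of VH junctions. The ranges were apart again, with the same exact permutation p of 0.0286 and adjusted p of 0.0490. For VH junctions the p was 0.0571 (exact permutation) without Ostir1-only IAA replicate 2, 3 or 4. With identical junctions counted once the difference was 0.319 points of all junctions. Limma gave log2 3.20 (SE 0.69, adjusted p = 0.00224), number 7 of 69 segments tested, of which 24.6% were called. Of the 36 VH segments tested, 28, the segment among them, were again admitted through the tag-only line, and with no minimum the segment had 3.19 (limma adjusted p = 0.00150). Ighv1-9 had 137 junctions in the tag-only line and 1 in the Ostir1-only line, and Ighv1-12 had 120 and 5. These came from 622334 and 236388 junctions in all. As mean shares of all junctions, Ighv1-9 had 0.0217% and 0.000480%, and Ighv1-12 had 0.0186% and 0.00227%. The 2 lines share no run, so line and run cannot be told apart in this comparison. Parental NT replicates 1 and 2, from the run of the tag-only line, had 0 segment junctions of 32473 (exact 95% upper bound 0.0114%, counting error only). Both are shallow and belong to a group that was used to choose the segment. An effect of run was not tested.

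IAA alone was not followed by a difference beyond the spread in either control line. In the Ostir1-only line the difference of IAA minus NT was −0.000187 points of all junctions (exact permutation p = 0.971, adjusted 0.971) and 0.0107 points of VH junctions (p = 0.886, adjusted 0.971, exact permutation). Within the first run the difference was −0.00429 points and within the second 0.00392 points of all junctions. The segment was below the limma minimum there, and 2.78% of 36 segments were called. In the tag-only line the difference was −0.00632 points of all junctions (p = 0.80) and 0.0555 points of VH junctions (p = 0.943), both exact permutation tests with adjusted p of 0.971. Limma gave log2 −0.06 (SE 0.35, adjusted p = 0.998), with 0% of 89 segments called.

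Bone marrow was higher than the Ostir1-only NT line by 0.470 points of all junctions and 1.27 points of VH junctions. Both had ranges apart, with an exact permutation p of 0.00476, the smallest possible, and an adjusted p of 0.0190. Limma gave log2 6.29 (SE 0.62, adjusted p = 3.99e-08), where 95.5% of 155 segments were called and 98.4% of the VH segments were higher. Of the 123 VH segments tested, 115, the segment among them, reached the minimum through bone marrow alone, so these shares were largely set by the minimum. With no minimum the segment had 6.65 (limma adjusted p = 3.92e-08). Scaled by median of ratios, its change was 0.41 with an adjusted p of 0.504 in limma.

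Against the tag-only NT line, bone marrow was higher by 0.388 points of all junctions (5.13-fold, exact permutation p = 0.00476, adjusted 0.0190). With identical junctions counted once that difference was 0.274 points and no longer passed (exact permutation, adjusted p = 0.0714). Its share of VH junctions was lower by a difference of −1.04 points, with overlapping ranges (exact permutation p = 0.0619, adjusted 0.0929). Without tag-only NT replicate 1, the lowest of its group, that difference was −1.51 points (exact permutation p = 0.0119), and without replicate 2, the highest, it was −0.448 points (exact permutation p = 0.238). Limma gave log2 2.42 (SE 0.31, adjusted p = 7.34e-08), where 96.9% of 159 segments were called. The segment reached the minimum in both groups, while 70 of the 123 VH segments tested did so through bone marrow alone. By size the segment was number 110 of the 123. Of the tested VH segments, 100% were called higher, a share that the minimum favours. The 9 tested VH within 100 kb ran from 3.70 for Ighv1-12 to 7.96 for Ighv1-14, and 4 of them were admitted through bone marrow alone. Under median-of-ratios scaling the change of the segment was −1.57 (limma adjusted p = 0.000233), the opposite direction.

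The contrasts that chose the segment are given for size only. From CTCF degron NT to IAA its log2 change was 3.87 (SE 0.28), number 14 of 54 VH segments with a median of 3.10, in a comparison with 85.7% of segments called. Against the parental NT line, CTCF degron IAA was higher by 7.60 (SE 0.53, VH median 5.47, 91.4% called) and CTCF degron NT by 3.91 (SE 0.44, VH median 2.14, 53.3% called). The segment reached the minimum in both groups of each contrast, but 30 of 54, 41 of 54 and 7 of 20 VH segments in that order did so through the first group alone, which favours high medians and calls. Among the neighbours, Ighv15-2 had 4.10, Ighv1-12 had 3.19 and Ighv1-9 had 1.87 from NT to IAA.

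Among its neighbours the segment held most of the junctions in the CTCF degron line and a minor share in bone marrow. With IAA in the CTCF degron line it held 67.6% ± 3.96 (64.5% to 75.0%, n = 6) of the junctions at the 12 VH segments within 100 kb, itself included. In the same line without IAA it held 59.5% ± 11.3 (47.1% to 79.7%, n = 6). In the tag-only line it held 56.0% ± 8.34 without IAA (46.8% to 66.7%, n = 4) and 50.7% ± 11.1 with it (41.4% to 64.7%, n = 4). Parental replicates with at least 20 such junctions gave 51.5% and 57.9% without IAA and 41.3% and 38.7% with it. In bone marrow the share was 14.5% ± 3.44 (11% to 20.5%, n = 6), below every replicate of these lines. This local measure was chosen after the data were seen and partly overlaps the values that chose the segment, so it carries no test.

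The neighbours differed in use. Ighv1-12, which lies 3607 bases away, had 0.0973% ± 0.0421 of all junctions in the CTCF degron with IAA and 0.159% ± 0.0300 in bone marrow (SD, n = 6 each). Ighv1-9 had 0.121% ± 0.0291 and 0.492% ± 0.191. The segment itself, at 2.25% ± 0.584 and 0.481% ± 0.129, was above both in the CTCF degron line and close to Ighv1-9 in bone marrow. Ighv15-2 had 0.468% ± 0.207 and 0.545% ± 0.126. The unnamed segment at 116259113 had 0.0261% ± 0.0152 and 0.0350% ± 0.0103. Ighv1-14 had 0.00713% ± 0.00611 and 0.416% ± 0.139, so it was frequent in bone marrow and rare in the degron line.

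**Figure D2:**
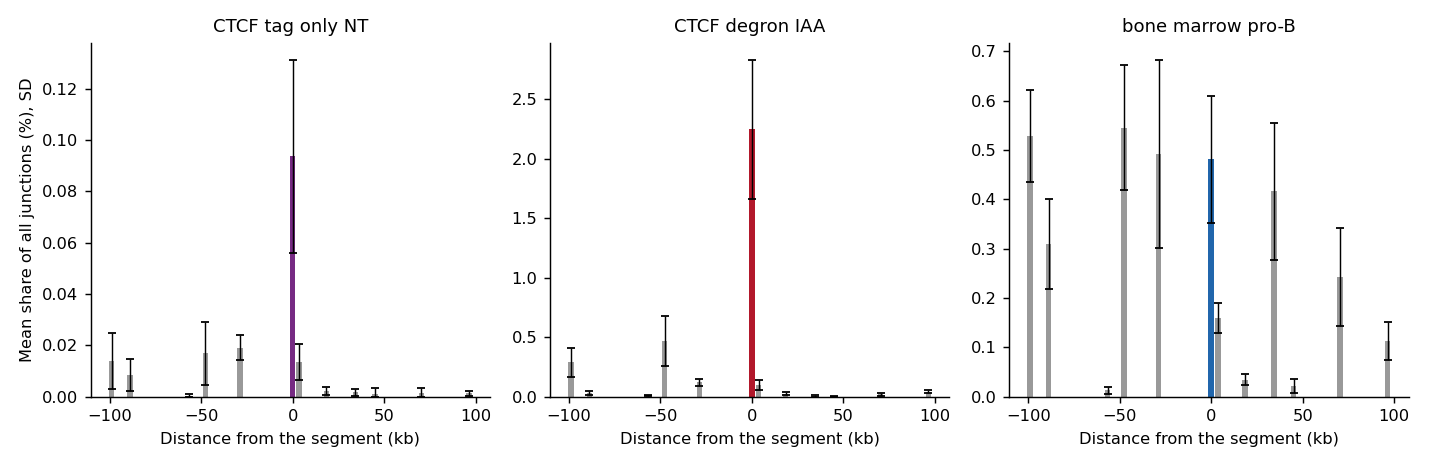
Mean share of all junctions (%) of each VH segment within 100 kb of the segment (coloured bar at 0), by distance in kb, in CTCF tag only NT (n = 4), CTCF degron IAA (n = 6) and bone marrow pro-B cells (n = 6); error bars are SD, cut at 0, and the 3 vertical axes differ. The segment is the tallest bar of the first 2 panels, at 0.0938% and 2.25%, and one of several of like height in bone marrow at 0.481%.

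The VH segments whose mean share followed the segment most closely across the 13 groups, by Pearson r of log2(mean percent + 0.001), were 115055836 (r = 0.987) and 115103579 (r = 0.980), both closest to Ighv5-9, and Ighv1-47 at 116619541 (r = 0.972). The 13 means share their library totals, and these values are a description. Their mean shares in the CTCF degron with IAA were 0.623%, 0.238% and 0.155%, and in bone marrow 0.245%, 0.175% and 0.193%. The first pair lies on the JH side of the region, 1184840 and 1137097 bases from the segment.

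The structure of the junctions was not used to choose the segment and was compared over replicates with at least 20 segment junctions. This left out CTCF degron NT replicate 3, which had 16. Examples from replicates show what was counted. The VH is in lower case at the left, the inserted bases are in capitals, and JH4 is in lower case at the right. Each insert holds a stretch of Ighd1-1, a D segment of mm9 (chr12:114720381-114720403, minus strand).

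Ighd1-1: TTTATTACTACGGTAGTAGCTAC
CTCF degron IAA, in frame: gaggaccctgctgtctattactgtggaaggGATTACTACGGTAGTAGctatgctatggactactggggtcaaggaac
CTCF degron IAA, out of frame: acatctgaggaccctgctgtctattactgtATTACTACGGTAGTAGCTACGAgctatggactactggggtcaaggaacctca
bone marrow, in frame: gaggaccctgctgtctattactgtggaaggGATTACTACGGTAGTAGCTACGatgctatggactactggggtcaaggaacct
bone marrow, out of frame: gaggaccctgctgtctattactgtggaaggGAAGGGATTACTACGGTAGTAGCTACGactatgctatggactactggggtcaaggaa

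The in-frame example of the CTCF degron kept the whole VH end (0 bases trimmed), and its out-of-frame example lost 6 bases. Each of these was read 3 times over 2 replicates. Both bone marrow examples kept the whole VH end and were read 15 and 8 times in 1 replicate each. Repeats of an identical junction, by insert length and not inserted sequence, made up 67.6% of the segment junctions of bone marrow. In the CTCF degron with IAA they made up 14.4%.

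The VH end was trimmed more in the CTCF degron with IAA than in bone marrow. Mean bases trimmed were 3.55 to 4.02 over the 6 CTCF degron IAA replicates (median 3.96, mean 3.88 ± 0.181) and 2.13 to 2.60 over the 6 bone marrow replicates (median 2.40, mean 2.38 ± 0.177). The ranges did not overlap. The difference was 1.50 bases (exact permutation p = 0.00216, the smallest possible, adjusted 0.00866 over 8 comparisons of junction structure). Against CTCF degron NT, with 5.31, 3.73, 4.84, 4.18 and 4.18 bases in replicates 1, 2, 4, 5 and 6 (mean 4.45 ± 0.627), the difference was −0.566 bases (exact permutation p = 0.0519, adjusted 0.104) and ranges overlapped. Without NT replicate 2 it was −0.745 bases (exact permutation p = 0.00476) and without NT replicate 1 it was −0.349 bases (exact permutation p = 0.124). The other lines with enough segment junctions also lay above bone marrow and were not tested. The tag-only line had 4.53 ± 0.651 bases without IAA and 3.83 ± 0.225 with it (n = 4 each). Parental NT had 4.16 ± 0.100 (n = 2), and 1 parental IAA replicate had 5.72.

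**Figure D3:**
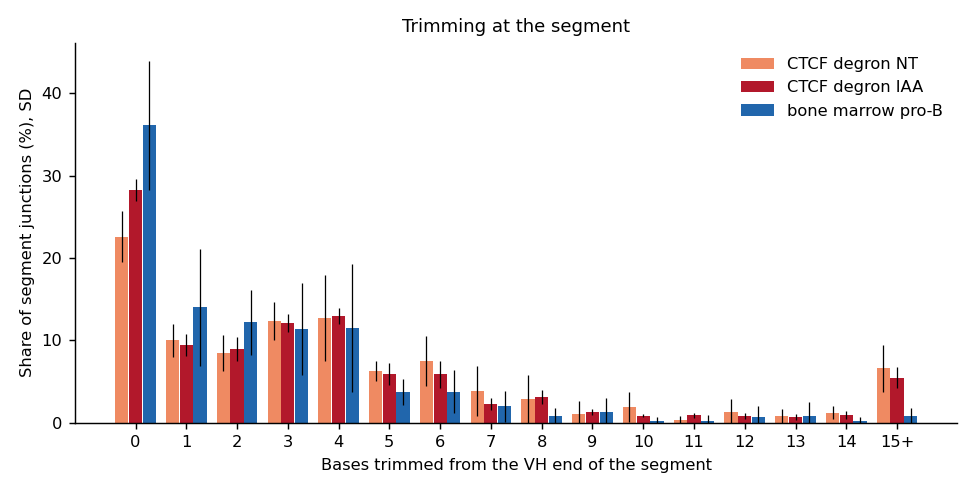
Share of segment junctions (%) by bases trimmed from the VH end, as the mean over replicates with SD, in CTCF degron NT (n = 5), CTCF degron IAA (n = 6) and bone marrow pro-B cells (n = 6); the last bin holds 15 bases or more. Untrimmed ends are the most frequent class in each, at 22.6%, 28.3% and 36.1%, and the last bin is the lowest in bone marrow at 0.846%.

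The insert holds the D and any bases added by terminal transferase. It averaged 14.1 to 16 bases in the CTCF degron with IAA (median 15.4, mean 15.3 ± 0.683) and 17.3 to 18.3 in bone marrow (median 17.9, mean 17.8 ± 0.444). These ranges were apart, with a difference of −2.49 bases (exact permutation p = 0.00216, adjusted 0.00866). The inserts at all other VH of the same replicates averaged 15.0 ± 0.580 and 17.1 ± 0.107 bases, so they too were longer in bone marrow. The longest insert in the files is 30 bases, and 53 segment junctions had that length. Against CTCF degron NT, with 13.9, 16.4, 16.2, 16.5 and 16.7 bases (mean 15.9 ± 1.15), the difference was −0.581 (exact permutation p = 0.327, adjusted 0.436). NT replicate 1 stood low at 13.9, and without it the difference was −1.09 (exact permutation p = 0.00952). Without IAA replicate 1, the lowest of its group, it was −0.334 (exact permutation p = 0.603).

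Ighd1-1, the D called DFL16.1 in older work, was found in the insert of segment junctions of the CTCF degron with IAA at 22.7% to 34.9% (median 25.8%, mean 27.5% ± 5.08, n = 6). A call needed at least 10 bases of the D. Without IAA the 5 replicates had 33.3%, 50.5%, 34.4%, 61.2% and 44.1% (mean 44.7% ± 11.7). The share fell with IAA by a difference of −17.2 points (exact permutation p = 0.00649, adjusted 0.0173), although the ranges overlapped slightly. Bone marrow had 16.8% to 33.8% (median 19.3%, mean 22.1% ± 6.41), and the difference of 5.44 points from the CTCF degron with IAA did not pass (exact permutation p = 0.132, adjusted 0.211). Without bone marrow replicate 5, its highest, it was 7.77 points (exact permutation p = 0.0195). The tag-only line had 52.9% ± 7.79 without IAA and 40.1% ± 4.35 with it (n = 4 each). Parental NT had 57.8% ± 5.00 (n = 2), and 1 parental IAA replicate had 37.9%. The share was thus lower with IAA in these lines without a CTCF degron too, which was not tested.

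Other VH junctions of the same replicates had lower shares of Ighd1-1. With IAA in the CTCF degron line they gave 22.4% ± 2.71, lower than the segment in 6 of 6 replicates by a mean of 5.09 points. In the same line without IAA they gave 34.4% ± 9.68, lower in 5 of 5 by 10.3 points. In the tag-only line they gave 32.3% ± 9.95 without IAA and 25.1% ± 8.0 with it, lower in 4 of 4 replicates each, by 20.5 and 15.0 points. In bone marrow they gave 15.3% ± 0.651, lower in 6 of 6 by 6.82 points. The other VH thus moved between NT and IAA of the CTCF degron in the same direction as the segment. This comparison was added after values were seen and was not tested. The remaining D calls at the segment in the CTCF degron with IAA were led by Ighd2-8 at 10.4% and Ighd2-3 at 5.86% of 4164 junctions, and 49.6% had no call. In bone marrow Ighd2-8 had 12.1% and Ighd2-4 6.61% of 1771 junctions.

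**Figure D4:**
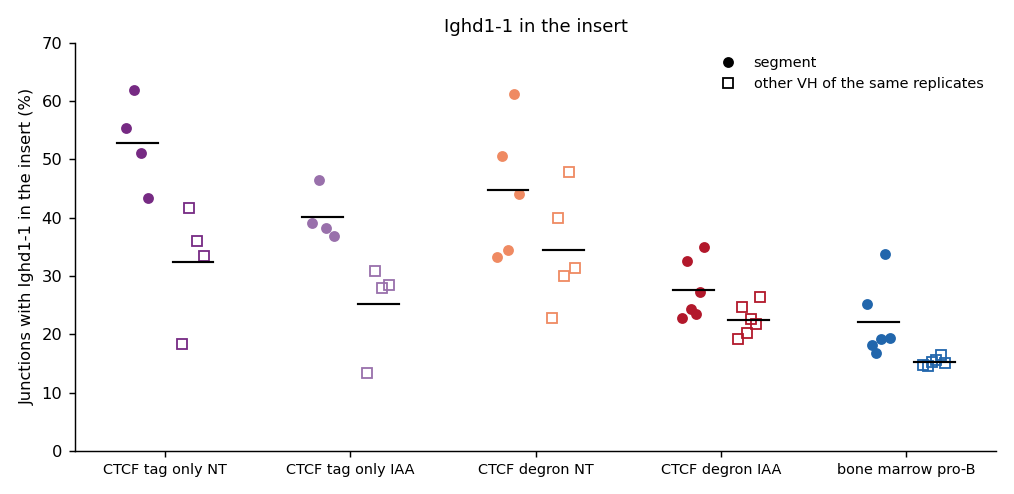
Share of junctions (%) with at least 10 bases of Ighd1-1 in the insert, for the segment (filled circles) and for all other VH junctions of the same replicates (open squares), in 5 groups; each point is 1 replicate and black bars are means. The segment means run from 52.9% in CTCF tag only NT to 22.1% in bone marrow, and each lies above that of the other VH.

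The reading frame of a junction was read from the tryptophan codon of JH4 to the cysteine codon of the VH, and could be read in 6254 of the 7658 junctions. At the segment, 31.5% to 37.3% of junctions of the CTCF degron with IAA were in frame (median 33.4%, mean 33.8% ± 2.29). In bone marrow the 6 replicates had 39.6%, 32.2%, 32.3%, 41.1%, 38.2% and 20.4% (mean 34.0% ± 7.62). The difference was −0.157 points (exact permutation p = 0.961, adjusted 0.961), and leaving out 1 replicate at a time gave −2.86 to 1.28. Against CTCF degron NT (35.0% ± 3.36, n = 5) it was −1.16 points (exact permutation p = 0.526, adjusted 0.601).

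The other VH junctions of bone marrow had higher in-frame shares, at 51.1%, 48.5%, 49.4%, 46.4%, 53.0% and 57.0% (mean 50.9% ± 3.73). The segment was lower in 6 of 6 replicates, with a mean difference of −16.9 points (SD 10.5, exact sign-flip p = 0.0312, the smallest that 6 replicates allow, adjusted 0.0625 over 2 comparisons, past the threshold only before adjustment). The share that was both in frame and free of stop codons between those codons was 24.1% ± 7.08 at the segment and 42.8% ± 4.39 at the other VH. In the CTCF degron with IAA the other VH had 33.4% ± 0.466 in frame, and the segment differed by 0.429 points, higher in 3 of 6 replicates (exact sign-flip p = 0.625, adjusted 0.625).

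By single segment, the mean in-frame share in bone marrow ranged from 28.2% to 73.9% with a median of 60.3% over the 60 VH segments with enough readable junctions. The segment was number 5 from the lowest. The lowest was Ighv5-2 at 28.2% ± 2.64, a VH known to pair poorly with surrogate light chain, and Ighv2-3 had 42.0% ± 2.68. Pairing was not measured here, and the cause of the low share at the segment was not tested. The neighbours differed widely, with Ighv1-9 at 69.1% ± 6.21, Ighv1-12 at 67.3% ± 16.6 and Ighv15-2 at 48.2% ± 7.34. Among the 3 VH with the most alike use, Ighv1-47 had 38.0% ± 2.57. The other pair lay above the median, with 115055836 at 63.8% ± 9.24 and 115103579 at 63.0% ± 16.9. In the CTCF degron with IAA the 24 segments read lay between 30.2% and 36.8%, and the segment was number 17 from the lowest.

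**Figure D5:**
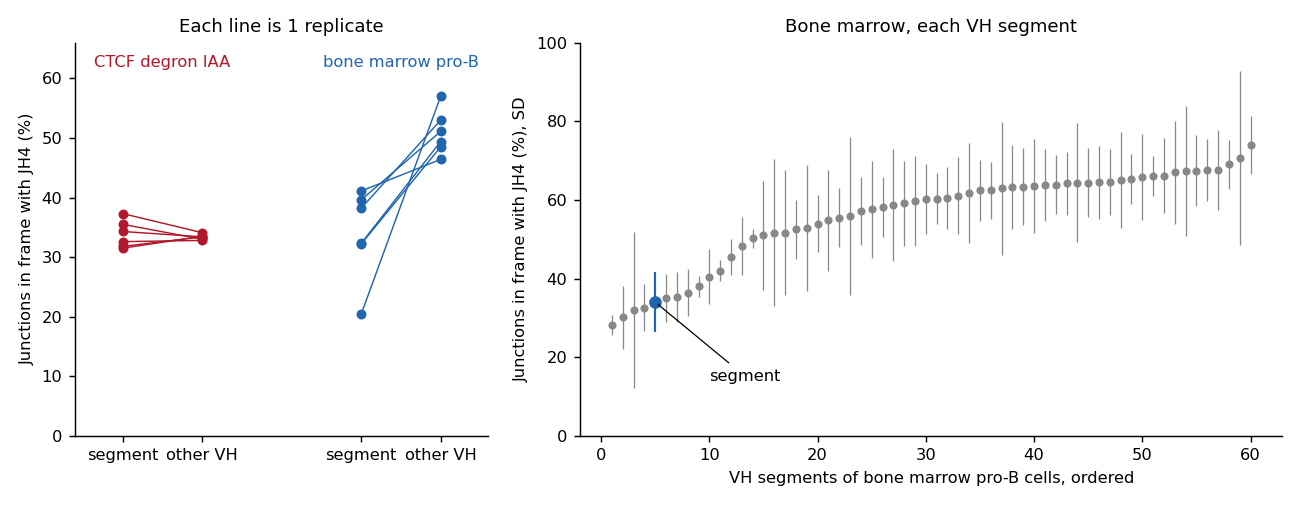
Left, share of junctions in frame with JH4 (%) at the segment and at the other VH, with a line for each replicate of CTCF degron IAA and bone marrow pro-B cells (n = 6 each); right, mean and SD over replicates for each of 60 VH segments in bone marrow, ordered by mean. The segment (blue, right) lies at 34.0%, number 5 from the lowest, and in all 6 bone marrow replicates below the other VH.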

How the data were processed

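Prey junctions from a JH4 bait were tallied in 98 full libraries, 42 a, 50 b and 6 bone marrow; 12 off-target lists of the 110 samples were not used. The authors deposited 1 line per junction read, with prey position, orientation, read bounds and sequence, and no count column, so every tally was made here. Per the labels, reads were aligned to a genome joining mm9 and another sequence of the locus; per the submitters' processing notes the aligner was Bowtie2 (version and filters not given in the sources used here). That genome was not used here; mm9 coordinates come from matches of prey reads with BLAST+ 2.17.0. Tags at the bait shift positions by 3 bases between a, b and bone marrow libraries, which was removed first. Duplicate marks, present only in bone marrow replicates 1 to 3, were not used.

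Groups and replicate numbers come from titles. In 4 libraries titled IAA the treatment label lacks IAA, and the title was followed. They are the a library of CTCF degron IAA replicate 4, the a and b libraries of its replicate 5, and IGCR1-deleted Rad21 degron IAA replicate 4. The a and b junctions of a replicate were summed. Peaks of at least 50 junctions gave 212 segments, 141 VH and 71 in the D region, 89 of them named by an mm9 match of at least 95% identity.

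Shares and junction measures were compared by two-sided exact permutation or, within replicates, exact sign-flip tests. Segments were tested with limma 3.58.1 (voom, lmFit, eBayes) in R 4.3.3 over all segments with a mean of at least 10 junctions per replicate, with a pseudocount of 0.5 and library totals as scale; called means an adjusted p under 0.05. On simulated data with log2 changes of 2, 96.4% to 100% of changed segments were recovered and 2.34% to 4.95% of calls were false. There were 20 simulations for each of the 6 tested comparisons. These rates belong to the simulated data only. The share of false calls in the measured data was not tested. This includes the bone marrow comparisons, where 95.5% and 96.9% of segments were called. Counting intervals are exact (Clopper-Pearson, 95%), and the limit for 0 junctions is 3 junctions of the total. Python 3.11.15, numpy 2.4.6, pandas 2.3.3, scipy 1.17.1 and matplotlib 3.10.9 did the rest.

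Named segments are the segment, its 2 nearest neighbours on each side, the most used VH of the CTCF degron IAA and of bone marrow, and the 3 VH with the most alike use; lists are VH within 100 kb and the Ighv1 family. The segment and the lists were chosen with earlier results of these data known. Alternatives were the window, identical junctions counted once, a or b libraries alone or averaged, orientation, scale, minimum, pseudocount, D length, the replicate block and each replicate left out. The a and b libraries were compared by exact sign-flip test over 18 comparisons (smallest adjusted p = 0.562). None could pass adjustment, since p cannot go below 0.0312 with 6 pairs or 0.125 with 4, so nothing is read from this. In CTCF degron IAA the a library was higher in 6 of 6 replicates as a share of all junctions (2.37% against 2.14%, exact sign-flip p = 0.0312). As a share of VH junctions it was higher in 1 of 6. That comparison and the local shares were added after seeing the data.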

Additional observations from a re-analysis of the deposited data

Results flagged for a closer look

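In the CTCF degron with IAA, replicate 1 had 3.94% of its VH junctions at the segment, far below the other 5, which lay between 8.50% and 9.83%. Its gap to the nearest replicate was 0.774 of the whole range of the group, above Dixon's critical value for 6 samples. The same replicate also had the lowest share of all junctions, at 1.19%.

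The mean insert at the segment in CTCF degron NT replicate 1 was 13.9 bases, while the other 4 replicates with enough junctions had 16.2 to 16.7. Here the gap was 0.821 of the range, above the critical value for 5 samples. It rests on 54 junctions. Of 40 groups of values examined this way, 2 held such a sample, and chance gives about 1 in 20.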

How the results depend on the processing

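Counting identical junctions of a library once moved the mean share of all junctions to 3.62% in CTCF degron IAA, 0.526% in CTCF degron NT, 0.417% and 0.358% in the tag-only line without and with IAA, 0.691% in bone marrow, 0.0559% in Rad21 degron NT, 0.0372% and 0.0393% in the Ostir1-only line without and with IAA, and 0.0504% and 0.0493% in the parental line likewise. The cause was not tested. The VH shares moved less, except to 0.0330% in IGCR1-deleted Rad21 degron NT and 0.355% in parental IAA. Under that setting bone marrow against the tag-only NT line gave 0.274 points of all junctions (exact permutation, adjusted p = 0.0714) and −1.27 points of VH junctions (adjusted p = 0.0490). The descriptive log2 changes became 2.87 (CTCF degron IAA against NT) and 6.62 (against parental NT).

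Median-of-ratios scaling gave log2 0.41 for bone marrow against Ostir1-only NT (limma adjusted p = 0.504), −1.57 against tag-only NT (limma adjusted p = 0.000233, reversed), 1.50 for CTCF degron IAA against NT and 3.68 against parental NT. The cause was not tested.

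With the replicate number as a block, sign-flip tests over 4 pairs cannot go below 0.125. Differences under the block were 0.0824 and 2.32 points (tag-only against Ostir1-only NT, all and VH junctions), 0.0762 and 2.36 (with IAA), 0.522 and 1.43 (bone marrow against Ostir1-only) and 0.439 (bone marrow against tag-only), each exact p = 0.125, adjusted 0.214. For junction structure the block gave 1.50 bases trimmed and −2.49 bases of insert (exact p = 0.0312, adjusted 0.125) and −16.5 points of Ighd1-1 (exact p = 0.0625, adjusted 0.167). Same-numbered IAA and NT replicates deviated together in the Ostir1-only (r = 0.931) and tag-only lines (r = 0.964) over 4 pairs, but the labels do not say that numbers pair samples. The block in limma changed no call.

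Leaving out 1 replicate at a time gave 0.0683 to 0.0988 and 1.72 to 2.79 points for tag-only against Ostir1-only NT and 1.79 to 2.70 points of VH junctions with IAA. The p was 0.0571 (exact permutation) when any 1 of the Ostir1-only NT replicates was left out, and, for VH junctions with IAA, without Ostir1-only replicate 2, 3 or 4. It gave −1.51 to −0.448 for bone marrow against tag-only NT (VH junctions), 3.51 to 4.49 for the log2 change of CTCF degron NT against parental NT, −0.745 to −0.349 bases trimmed, −1.09 to −0.334 insert bases, and 3.96 to 7.77 points of Ighd1-1 for the CTCF degron IAA against NT, NT and bone marrow in that order. The in-frame difference in bone marrow ran from −19.3 to −13.0, where 5 replicates cannot go below 0.0625. The window, the a and b choices, orientation, pseudocount, minimum and D length changed no call and no level by more than its spread. Depth limits the Rad21 degron groups with IAA most.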
